A study of Mus musculus with 2 samples.

Results

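The claudins Cldn1, Cldn3, Cldn5, Cldn7, Cldn15 and Cldn18 were measured in 2 single-cell RNA libraries of injured mouse lung. They were selected by gene symbol, are 6 of the 31053 genes in the count tables, and were all found. The tables list 35 genes with a claudin name. Claudins are membrane proteins of the tight junction, the seal between neighbouring epithelial or endothelial cells. Their outer loops pair across the gap between cells, and the mix of family members sets which ions pass, since some members close the path and others form pores. In the alveolar wall an endothelial barrier, known for Cldn5, lies against an epithelial barrier known for Cldn3, Cldn4, Cldn7 and Cldn18.

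The wild-type (WT) group is 1 library and the p47phox-KI (KI) group is 1 library. Both come from mice of strain C57BL/6 and both are labelled acute lung injury, so no uninjured lung was measured. p47phox, encoded by Ncf1, is the organising subunit of the phagocyte NADPH oxidase, and the series sets expression in the WT and KI lungs side by side. The labels give neither the agent of injury, the construction of the KI allele, the sex, age or number of the mice, nor the gate of the sort that followed staining for viability and CD45.2. With 1 library per group no test is possible. Every interval below is a 95% interval of counting error alone and says nothing about the spread between mice.

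The count tables hold unique molecular identifiers (UMIs), each standing for 1 captured transcript, read near its 3′ end. The WT library held 43376713 UMIs in 10473 barcodes and the KI library 43445797 in 9120. Filtering and doublet removal left 7727 WT and 6637 KI cells, with medians of 3313 and 3769 UMIs. Clusters were formed without any claudin gene and named from fixed markers, which gave 10 classes, each called "-like" because its name rests on markers. Of these, 5 had at least 100 cells in each library and were compared: endothelial (4547 WT and 3856 KI cells), fibroblast (1476 and 1241), smooth muscle or pericyte (504 and 539), type 1 alveolar (435 and 249) and type 2 alveolar (450 and 472). Ncf1 had 183 WT and 175 KI UMIs in kept cells. The libraries shared 30 barcode sequences. They differed in Y-linked transcripts (seen in 0.851% of the WT leukocytes and 55.7% of those of KI) and in haemoglobin transcripts (1.64% and 17.0% of kept cells). Outside the leukocytes Y-linked transcripts were rare in both libraries, seen in 0.0133% of WT cells (1 cell) and 0.261% of KI cells (17 cells). The part of these differences in any claudin value was not tested.

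Levels are given in CPM, the UMIs of a gene for every 1000000 UMIs of the class. A level more than 20 times below the highest class of the same library is called a free-RNA level, since RNA released from other cells can reach it. Levels are compared between classes and libraries for 1 gene at a time.

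Each of the 4 abundant claudins had its own place in the lung. Cldn5 was highest in endothelial-like cells, Cldn18 in type 1 alveolar-like cells, Cldn3 in type 2 alveolar-like cells and Cldn7 in airway epithelial-like cells, in both libraries. Cldn1 and Cldn15 were sparse, with 152 and 192 UMIs over both libraries, and their UMIs lay mainly in fibroblast-like and endothelial-like cells respectively.

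**Figure D1:**
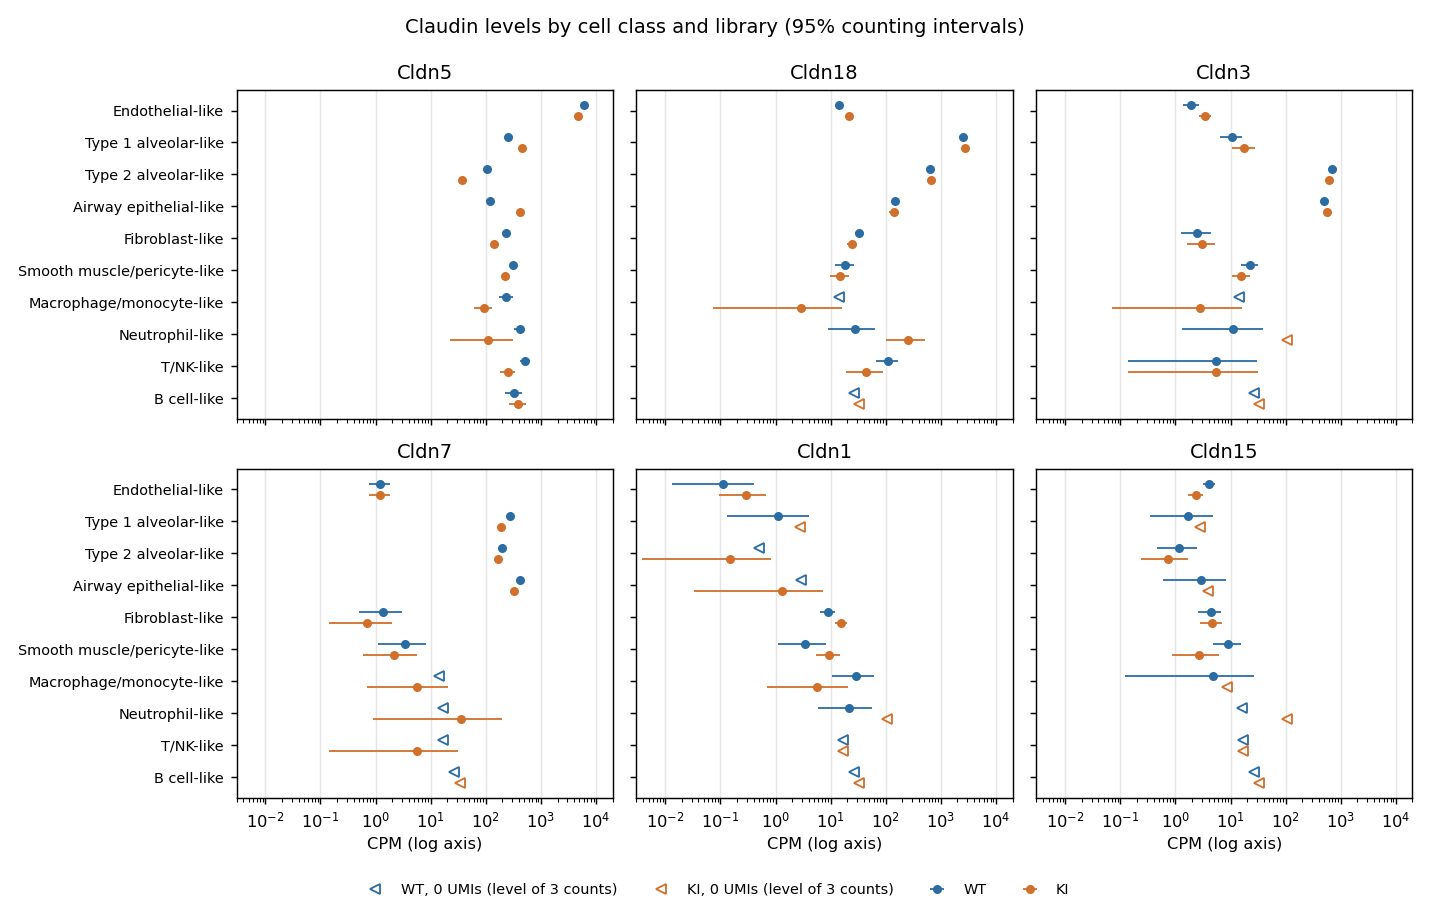
Level of each claudin in CPM (log axis) in the 10 classes, blue for the WT library and orange for the KI library, with 95% counting intervals. Open triangles mark classes with 0 UMIs, placed at the level that 3 counts would give. Cldn5 stands highest in endothelial-like cells (6128 and 4767 CPM) and Cldn18 in type 1 alveolar-like cells (2509 and 2802 CPM).

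Between the libraries, 22 of the 30 combinations of a claudin and a compared class held at least 20 UMIs. A combination is counted as past the fold when its log2 ratio of KI over WT was beyond 0.5 in either direction. By this rule 6 read higher in KI, 5 read lower and 11 lay within the limit. In endothelial-like cells 2 of 5 measured claudins read higher and 1 lower, where 12.2% of all measured genes passed the limit upward and 6.31% downward (18.5% in all). Fibroblast-like cells had 1 higher and 1 lower of 5 (17.5%, 7.37% and 24.9% of all genes), and smooth muscle or pericyte-like cells 1 and 1 of 4 (14.5%, 8.29% and 22.7%). Type 1 alveolar-like cells had 2 higher and 1 lower of 4 (18.8%, 10.2% and 29%), and type 2 alveolar-like cells 0 and 1 of 4 (12.5%, 6.3% and 18.8%). Over all genes the median log2 ratio lay between 0.041 and 0.087 in the 5 classes. The share of claudin combinations past the limit is read against these shares only as a description, since the combinations are few.

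Above the free-RNA level in both libraries 10 combinations were measured. Of these, 2 read higher, both of Cldn1 (fibroblast-like and smooth muscle or pericyte-like cells), and 2 lower (Cldn7 in type 1 alveolar-like and Cldn15 in endothelial-like cells). The 6 within the limit included Cldn5 in endothelial-like cells, Cldn18 in both alveolar classes and Cldn3 in type 2 alveolar-like cells. The free-RNA level screens the sparse Cldn1 and Cldn15 weakly. The highest Cldn1 class stood at 28.4 CPM in WT, from 6 UMIs, and at 15.7 CPM in KI. For Cldn15 a mesothelial-like cluster of a finer resolution, described below, stood at 198 and 327 CPM. Beside that cluster Cldn15 in endothelial-like cells (4.11 and 2.37 CPM) would be at a free-RNA level.

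**Figure D2:**
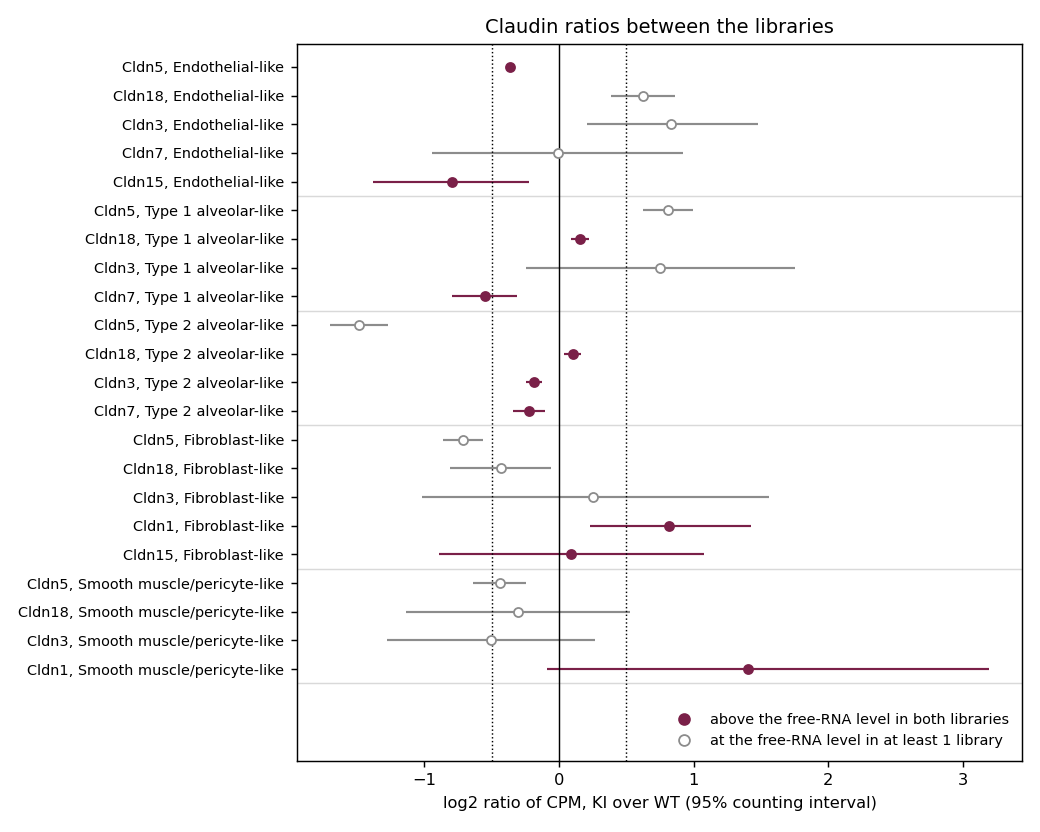
Log2 ratio of CPM, KI over WT, for each claudin and class with at least 20 UMIs, with 95% counting intervals. Filled points were above the free-RNA level in both libraries, and dotted lines mark 0.5 in either direction. Cldn5 in endothelial-like cells stands at −0.36 and Cldn18 in type 1 alveolar-like cells at 0.16.

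Cldn5 (ENSMUSG00000041378) encodes the barrier-forming claudin of blood vessels and is a gene of 1 exon on the plus strand of chromosome 16, from 18776847 to 18778262 in GRCm38, the assembly also called mm10. The RefSeq sequence of its promoter window, the 250 bases before the start on that assembly (GRCm38.p6, chr16:18776597-18776846, plus strand), is shown because factors known to act on claudin genes were measured beside it. Capitals mark the only match to the 6 motifs searched on both strands, the Grainyhead-like (GRHL) motif AACNNGTT, beginning 20 bases before the start.

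Cldn5 promoter: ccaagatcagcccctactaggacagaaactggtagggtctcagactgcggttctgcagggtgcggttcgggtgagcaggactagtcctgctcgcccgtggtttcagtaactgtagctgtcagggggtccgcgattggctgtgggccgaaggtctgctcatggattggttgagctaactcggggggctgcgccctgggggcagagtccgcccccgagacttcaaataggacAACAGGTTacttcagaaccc

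The motif AACNNGTT occurred in 3.64% of 32851 promoter windows of this length. The other motifs searched were CTCAAG (NKX2-1, 13.3% of windows), AACAAT (SOX, 9.42%), GTAAACA (FOXO, 3.17%), CCGGAA (ETS factors such as ERG, 12.03%) and the TATA box (TATAAA, 12.4%). A match describes letters only and is no evidence of binding. No overlap between motif matches arose, since the window held 1.

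Endothelial-like cells held 110406 of the 113329 WT Cldn5 UMIs and 82599 of the 84940 KI UMIs. The level was 6128 CPM [6092, 6165] in WT and 4767 CPM [4735, 4800] in KI, a log2 ratio of −0.36 [−0.38, −0.35]. The KI library read lower, by less than the limit of 0.5. The median cell stood at 5763 CPM in WT and 4381 CPM in KI, with the middle 80% of cells from 1920 to 10286 and from 1221 to 8632 CPM, so the cells of both libraries overlapped broadly. For shares, cells were thinned to 1000 UMIs, and cells with fewer were left out (261 WT and 240 KI endothelial-like cells). Cldn5 was then detected in 96.0% of 4286 WT and 93.2% of 3616 KI endothelial-like cells, against 97.6% and 97.0% of all cells without thinning. The mean count of the thinned cells was 6.08 and 4.87 UMIs. In fibroblast-like cells, which should lack the gene, the thinned shares were 10.3% and 9.72%.

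The lower KI level was seen across the endothelium. Of 10 endothelial-like clusters, 9 held at least 50 cells in each library, and Cldn5 read lower in KI in all 9, by log2 ratios from −0.63 to −0.25 with a median of −0.34. All 9 counting intervals lay below 0, and 3 clusters passed −0.5. The level was highest in cluster 1, named capillary of the Car4 type from Car4, Ednrb and Apln, at 8041 CPM in WT and 6718 CPM in KI. The capillary cluster 0, led by Gpihbp1 and Plvap, stood at 6589 and 4817 CPM. Clusters 2 and 10, also named capillary of the Car4 type, stood at 6684 and 5290 CPM and at 6366 and 5103 CPM. In WT the intervals of clusters 0 and 2 overlapped and cluster 10 read below cluster 0, while in KI clusters 2 and 10 read above it. The lowest of the 9 was cluster 13, named venous from Slc6a2, Vwf and Selp, at 3236 and 2086 CPM, a ratio of −0.63 [−0.71, −0.56]. Venous-like cells thus read below capillary-like cells in both libraries, and the highest cluster stood 2.48-fold above the lowest in WT and 3.22-fold in KI. The order of the 9 clusters was nearly the same in both libraries (Spearman's rho 0.97 across clusters, which share their library). Clusters 5 and 18 also passed −0.5, with 4319 and 3014 CPM in cluster 5, led by Tmem252 and Adamts9, and 3788 and 2578 CPM in cluster 18. A cycling cluster led by Cenpf and Top2a, with 10 WT and 23 KI cells, stood at 1600 and 1656 CPM, lower than every other endothelial-like cluster, and its intervals overlapped between the libraries.

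**Figure D3:**
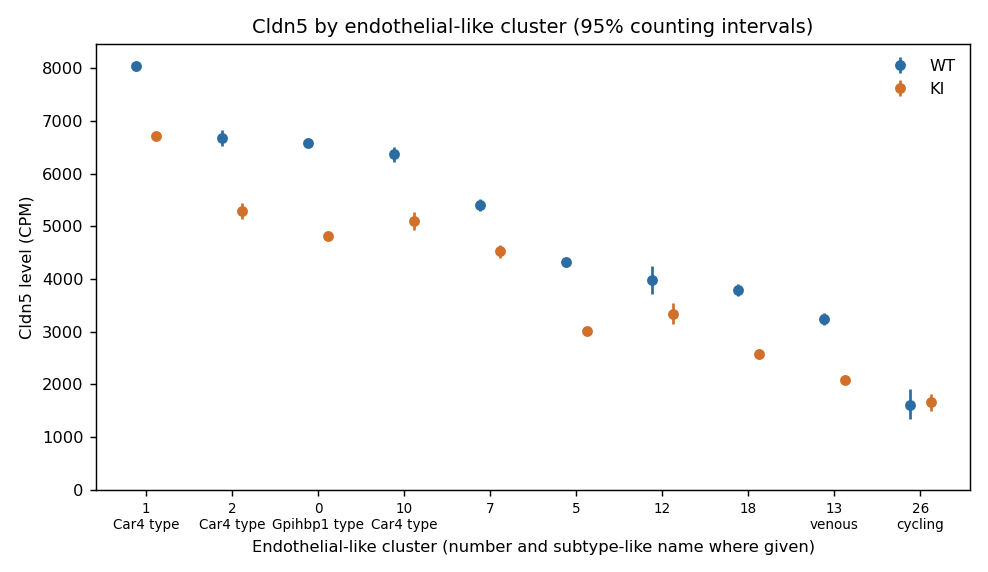
Cldn5 level in CPM in each endothelial-like cluster, ordered by the WT level, with 95% counting intervals. The KI points (orange) lie below the WT points (blue) in the 9 clusters with at least 50 cells per library. Cluster 26, the cycling cluster, stands at 1600 and 1656 CPM.

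Outside the endothelium Cldn5 was found in all 9 other named classes of both libraries, at 37 to 519 CPM. In WT the order below endothelial-like cells began with T or NK-like cells (519 CPM [419, 635]) and neutrophil-like cells (415 [327, 519]), whose intervals overlapped. In KI it began with type 1 alveolar-like (446 [407, 488]), airway epithelial-like (420 [375, 468]) and B cell-like cells (378 [262, 528]), whose intervals also overlapped. Type 2 alveolar-like cells were lowest in both libraries. The order of these classes was therefore not shared. An unnamed cluster, with 100 KI but 15 WT cells, held 720 CPM in KI.

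The ratios of Cldn5 in these classes went in different directions. Type 1 alveolar-like cells held 255 CPM in WT and 446 CPM in KI, a log2 ratio of 0.81 [0.62, 1.00], which became 0.20 with doublets kept, 0.17 with no cell filter and 0.47 with the same cluster weights. Its 2 clusters differed, with 133 and 309 CPM in the deeper cluster 9 (a ratio of 1.22 with an interval above 0) and 938 and 793 CPM in the shallow cluster 17 (−0.24 [−0.50, 0.02]). In type 2 alveolar-like cells it was 104 and 36.9 CPM (−1.49 [−1.70, −1.27]), or 0.059 with doublets kept and −0.11 with each library clustered alone. Fibroblast-like cells stood at 233 and 142 CPM (−0.71 [−0.86, −0.57]), or −0.25 when CPM was averaged cell by cell and −1.44 under the stricter cell filter. Among their clusters, 14 stood at 475 and 68.6 CPM (−2.79), while 11 and 19 had ratios of 0.04 and 0.09. Smooth muscle or pericyte-like cells stood at 307 and 226 CPM (−0.44 [−0.64, −0.24]), or −1.30 under a stricter cell filter (at least 500 genes and at most 5% mitochondrial UMIs). Their clusters differed, with 326 and 169 CPM in cluster 6 (−0.94 [−1.21, −0.68]) and 275 and 329 CPM in cluster 15 (0.26 [−0.05, 0.57]).

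The 10 endothelial markers used for naming were read beside Cldn5 in the same classes. Across type 1 alveolar-like cells they stood at 2.75% to 6.23% of their endothelial-like level in WT (median 4.64%) and at 10.1% to 16.0% in KI (11.2%), while Cldn5 stood at 4.15% and 9.36%. Type 2 alveolar-like cells had marker medians of 1.98% in WT and 0.897% in KI, and Cldn5 stood at 1.69% and 0.775%. In these classes Cldn5 and the markers differed between the libraries in the same direction. In fibroblast-like cells the medians were 4.97% and 4.34% and Cldn5 stood at 3.81% and 2.98%. In smooth muscle or pericyte-like cells the medians were 5.53% and 6.10%, with Cldn5 at 5.01% and 4.75%. In airway epithelial-like cells they were 2.80% and 11.2%, with Cldn5 at 1.94% and 8.81%. Cldn5 lay below the median marker in all 5 of these classes of both libraries. The part of endothelial RNA or of mixed droplets in these levels was not tested beyond this.

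**Figure D4:**
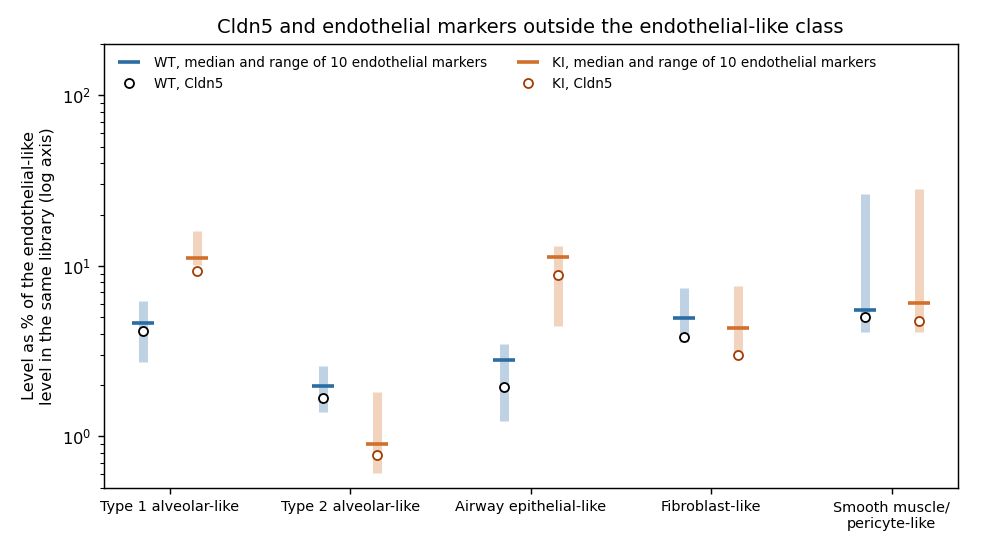
Cldn5 (open circles) and 10 endothelial markers (bar: range, dash: median) in classes outside the endothelium, as a percentage of their endothelial-like level in the same library (log axis). In type 1 alveolar-like cells Cldn5 stands at 4.15% in WT and 9.36% in KI, beside marker medians of 4.64% and 11.2%.

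Cldn18 (ENSMUSG00000032473) encodes a claudin that in lung is known for limiting ion leak across the alveolar epithelium. It lies on the minus strand of chromosome 9, from 99689461 to 99717267 in GRCm38, with 4 annotated transcripts of 5 exons, and overlaps Gm16004 on the other strand. RefSeq lists 2 starts. Both starts are shown because tags from the 3′ end cannot tell their transcripts apart, so every Cldn18 value here sums them. The windows are the 250 bases before each start (GRCm38.p6, minus strand), chr9:99717268-99717517 for the first and chr9:99710064-99710313 for the second. No letters are in capitals, since none of the 6 motifs matched.

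Cldn18 promoter, first start: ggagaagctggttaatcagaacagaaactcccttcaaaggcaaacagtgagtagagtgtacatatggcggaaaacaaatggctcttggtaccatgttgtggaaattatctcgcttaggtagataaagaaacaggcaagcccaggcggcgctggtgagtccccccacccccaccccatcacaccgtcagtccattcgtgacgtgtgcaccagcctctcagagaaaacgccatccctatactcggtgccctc

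Cldn18 promoter, second start: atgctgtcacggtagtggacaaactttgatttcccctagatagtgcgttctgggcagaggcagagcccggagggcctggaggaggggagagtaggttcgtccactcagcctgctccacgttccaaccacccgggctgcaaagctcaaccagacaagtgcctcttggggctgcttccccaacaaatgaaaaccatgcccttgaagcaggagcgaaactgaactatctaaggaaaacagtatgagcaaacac

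Type 1 alveolar-like cells held 2509 CPM [2437, 2584] of Cldn18 in WT and 2802 CPM [2703, 2904] in KI, a log2 ratio of 0.16 [0.09, 0.23]. These cells fell into a cluster of usual depth and one of low depth, with a median under 0.5 of its library's, and both held the gene. The deeper cluster 9, led by Ager, stood at 2346 and 2649 CPM, and the shallow cluster 17, led by Akap5, at 3424 and 3189 CPM. After thinning, which left out 92 WT and 63 KI type 1 alveolar-like cells, Cldn18 was detected in 84.8% [80.6, 88.5] of 343 and 87.1% [81.4, 91.6] of 186 of them, and in 1.49% and 1.74% of endothelial-like cells. The KI level was thus slightly above the WT level, and the shares overlapped.

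Type 2 alveolar-like cells held 627 CPM [607, 647] in WT and 673 CPM [654, 693] in KI (0.10 [0.04, 0.17]), or a ratio of 0.025 with no cell filter. The level of Cldn18 in these surfactant-making cells was 4.00 times below that of type 1 alveolar-like cells in WT and 4.16 times below it in KI. The type 2 level was 24.99% and 24.03% of the type 1 level, while 9 type 1 markers had medians of 2.34% and 2.68%. These markers ranged from 0.515% to 22.3% in WT and from 0.519% to 30.7% in KI. All 9 lay below Cldn18 in WT and 8 of the 9 in KI. Airway epithelial-like cells (65 WT and 49 KI cells) came next among classes with at least 20 Cldn18 UMIs, at 147 CPM [125, 173] and 140 CPM [115, 170]. The WT interval overlapped that of T or NK-like cells (110 CPM [67.4, 170], 20 UMIs). In KI, 7 UMIs in 12 neutrophil-like cells gave 251 CPM [101, 517]. In endothelial-like cells, at a free-RNA level, Cldn18 stood at 14.0 and 21.5 CPM. That ratio of 0.62 [0.39, 0.86] became −0.02 under the stricter cell filter.

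Cldn3 (ENSMUSG00000070473) encodes a sealing claudin of many epithelia. It is a gene of 1 exon on the plus strand of chromosome 5, from 134986214 to 134987472 in GRCm38, and overlaps Wbscr25 on the other strand. The sources used here do not state whether counting used strand, so it is not known whether reads of the overlapping pair were told apart. Type 2 alveolar-like cells held 704 CPM [683, 726] of Cldn3 in WT and 619 CPM [600, 638] in KI, a log2 ratio of −0.19 [−0.25, −0.12]. Airway epithelial-like cells held 500 CPM [458, 545] and 566 CPM [514, 621], so the order of these classes was clear of the counting intervals in WT and within them in KI. The next named class stood at 22.2 CPM in WT (smooth muscle or pericyte-like) and 17.8 CPM in KI (type 1 alveolar-like). The unnamed cluster held 18 Cldn3 UMIs in KI (92.6 CPM). After thinning, 50.9% of WT and 43.2% of KI type 2 alveolar-like cells held a Cldn3 UMI, against 97.3% and 98.1% without thinning. In endothelial-like cells the thinned shares were 0.280% and 0.304%.

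Cldn3 was nearly missing from type 1 alveolar-like cells, the flat cells of gas exchange, with 19 UMIs in each library (10.5 and 17.8 CPM). The thinned shares were 0.875% and 0.538%, on 3 cells and 1 cell. This level was 66.8 and 34.8 times below that of type 2 alveolar-like cells. The ratio of 0.75 [−0.24, 1.75] had no stable direction, at −3.27 under the stricter filter, −2.71 with each library clustered alone and −0.75 when CPM was averaged cell by cell. Cluster 9 held 15 WT and 2 KI UMIs (−1.91 [−5.08, 0.19]), and the shallow cluster 17 held 4 and 17 (1.94 [0.32, 3.97]). Without thinning the UMIs of the class lay in 13 WT and 5 KI cells.

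Smooth muscle or pericyte-like cells held Cldn3 at a free-RNA level in both libraries, with 32 WT and 29 KI UMIs (22.2 and 15.7 CPM, ratio −0.50 [−1.28, 0.27]). Most of these UMIs lay in cluster 6, with the pericyte genes Cox4i2, Higd1b and Pdgfrb among its leading genes, with 25 in each library (27.5 and 21.0 CPM). Cluster 15, with the smooth muscle genes Acta2 and Myh11 among its leading genes, held 7 and 4 UMIs (13.1 and 6.06 CPM). The level of the class was 3.15% and 2.53% of the type 2 alveolar-like level. The 10 type 2 markers had medians of 0.751% and 0.357% of theirs and reached 8.36% and 12.7%, with 8 of the 10 below Cldn3 in each library. This was not particular to Cldn3, since 8 of the 10 also lay below Cldn18 (2.87% and 2.17%) and Cldn7 (1.78% and 1.29%) there. Airway epithelial-like cells held Cldn3 at 71.1% and 91.4% of the type 2 level, and the part of their RNA was not tested. In fibroblast-like cells Cldn3 stood at 0.357% and 0.485%, beside marker medians of 0.339% and 0.398%.

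Cldn7 (ENSMUSG00000018569) encodes a claudin found at tight junctions and along the sides of many epithelial cells. It lies on the plus strand of chromosome 11, from 69964779 to 69967885 in GRCm38, with 5 annotated transcripts. Airway epithelial-like cells held 417 CPM [379, 458] in WT and 326 CPM [287, 369] in KI. Type 1 alveolar-like cells followed at 278 CPM [255, 304] and 190 CPM [165, 218], and type 2 alveolar-like cells at 195 CPM [184, 207] and 167 CPM [157, 177]. The order of the 3 classes was the same in both libraries, with intervals of the 2 alveolar classes that overlapped in KI.

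Cldn7 read lower in KI in all 3 epithelial classes. The log2 ratio was −0.55 [−0.79, −0.31] in type 1 alveolar-like cells, −0.22 [−0.34, −0.11] in type 2 alveolar-like cells and −0.36 [−0.58, −0.13] in airway epithelial-like cells. The first of these passed the limit of 0.5, but stood at −0.35 without clusters of low depth. Those clusters held 140 of 435 WT and 107 of 249 KI type 1 alveolar-like cells, and in them Cldn7 stood at 209 and 92.5 CPM (−1.17 [−1.88, −0.50]). In the deeper cluster 9 it stood at 291 and 228 CPM (−0.35 [−0.61, −0.09]). The thinned shares of cells with a Cldn7 UMI overlapped between the libraries, at 22.4% [18.1, 27.2] and 18.3% [13.0, 24.6] in type 1 alveolar-like cells and 16.9% [13.5, 20.7] and 13.6% [10.6, 17.0] in type 2 alveolar-like cells. Endothelial-like cells gave 0.210% and 0.111%.

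Detection of the epithelial claudins differed between the 2 alveolar cell types. Cells with at least 1000 UMIs, thinned to that number, were counted by how many of Cldn3, Cldn7 and Cldn18 had a UMI. Of the 343 WT and 186 KI type 1 alveolar-like cells so kept, 69.4% and 72.6% held 1 of the 3, and 19.0% and 16.7% held 2. Cldn7 and Cldn18 were found together in 65 of 343 WT and 31 of 186 KI cells, and Cldn3 and Cldn18 in 2 and 0. For Cldn7 with Cldn18 this was 18.95% and 16.67%, close to the 19.05% and 15.92% that the product of their shares gives. In type 2 alveolar-like cells 44.0% and 49.4% held 1, 26.9% and 21.4% held 2 and 4.89% and 2.12% held all 3. Cldn3 and Cldn18 were found together in 23.1% of WT and 18.2% of KI type 2 alveolar-like cells, close to the 22.7% and 18.0% that the product of their shares gives. At this depth a missing UMI does not show a missing transcript.

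**Figure D5:**
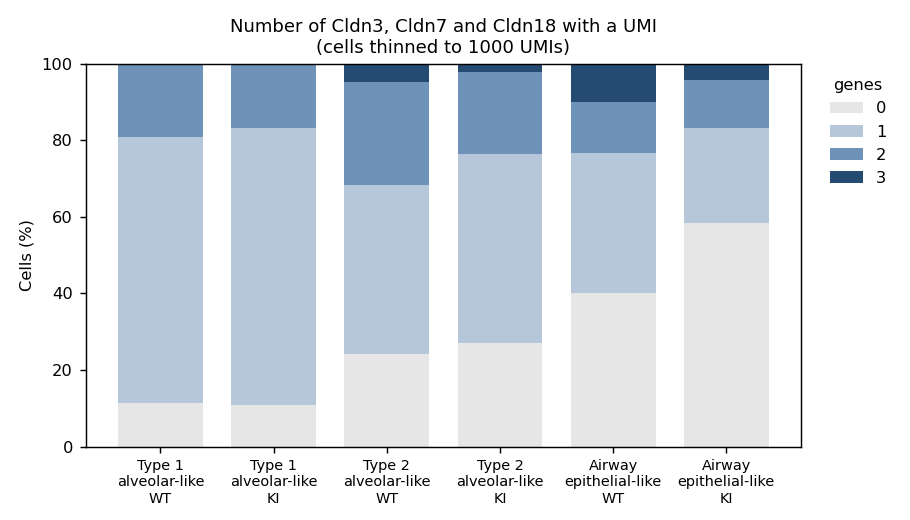
Share of cells, thinned to 1000 UMIs with shallower cells left out, in which none, 1, 2 or 3 of Cldn3, Cldn7 and Cldn18 had a UMI, by epithelial class and library. In type 1 alveolar-like cells 69.4% (WT) and 72.6% (KI) held 1, and in type 2 alveolar-like cells 26.9% and 21.4% held 2.

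Cldn1 (ENSMUSG00000022512) encodes a sealing claudin known for the barrier of the skin. It lies on the minus strand of chromosome 16, from 26356642 to 26371841 in GRCm38. Its UMIs in these lungs lay mainly outside the epithelium. Fibroblast-like cells held 39 WT and 68 KI UMIs (8.91 CPM [6.34, 12.2] and 15.7 CPM [12.2, 19.9]), found in 2.24% and 3.71% of cells. The log2 ratio was 0.82 [0.23, 1.42], or 1.94 under the stricter cell filter and 0.29 when CPM was averaged cell by cell. Within the class, cluster 8, led by Fgl2, Rbp4 and Mmp2, held most of them, with 22 and 46 UMIs (17.2 and 34.2 CPM, ratio 0.99 [0.23, 1.80]). Cluster 14, with Dcn and Pi16 among its leading genes, held 7 and 17 (13.2 and 19.1 CPM). Cluster 3, the fibroblast-like cluster with the most cells, went the other way with 7 and 4 (5.16 and 2.99 CPM, −0.79 [−3.01, 1.19]), and cluster 19 held 2 and 1.

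Smooth muscle or pericyte-like cells held 5 and 17 Cldn1 UMIs (3.47 and 9.18 CPM, ratio 1.41 [−0.09, 3.20]), of which 4 and 13 were in cluster 15, the one with smooth muscle genes. In WT the highest class was macrophage or monocyte-like, at 28.4 CPM [10.4, 61.7] from 6 UMIs in 2 cells, an interval that overlapped those of neutrophil-like (4 UMIs) and fibroblast-like cells. Endothelial-like cells gave 2 and 5 Cldn1 UMIs, and type 2 alveolar-like cells 0 and 1. In WT type 2 alveolar-like cells 3 counts would give 0.503 CPM.

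Cldn15 (ENSMUSG00000001739) encodes a pore-forming claudin known for letting sodium pass in the intestine. It lies on the plus strand of chromosome 5, from 136966616 to 136975858 in GRCm38. Its counts were low in every class. Endothelial-like cells held 74 WT and 41 KI UMIs (4.11 CPM [3.23, 5.16] and 2.37 CPM [1.70, 3.21]), found in 1.56% and 0.960% of cells. The log2 ratio was −0.80 [−1.38, −0.23], or −0.38 under the stricter cell filter. By cluster the ratio was not uniform. The capillary cluster 0 held 22 and 10 UMIs (−1.14 [−2.39, −0.0067]), while the venous-like cluster 13 held 3 and 9 (1.40 [−0.60, 3.92]).

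Fibroblast-like cells held 19 and 20 Cldn15 UMIs (4.34 and 4.62 CPM), of which 7 and 16 were in cluster 14. Of those, 6 and 13 came from 11 WT and 9 KI cells of cluster 14 that formed a mesothelial-like cluster, with Upk3b and Msln among its leading genes, at the finer clustering resolution of 2. Mesothelial cells line the surface of the lung. Without these cells fibroblast-like cells held 13 and 7 Cldn15 UMIs (2.99 and 1.63 CPM), and the log2 ratio went from 0.09 [−0.89, 1.07] to −0.88 [−2.44, 0.56], a step added after the data were seen. The same cells held 1 and 5 of the Cldn1 UMIs of the class. Smooth muscle or pericyte-like cells held 13 and 5 (9.01 CPM [4.80, 15.4] and 2.70 CPM [0.88, 6.30]), all of them in cluster 6, the one with pericyte genes. The intervals of the 3 classes overlapped in each library. The mesothelial-like cells held Cldn15 UMIs in 4 of 11 and 6 of 9 cells. Their level was 198 CPM [72.5, 430] and 327 CPM [174, 559], above the intervals of every class named at resolution 1 that held a Cldn15 UMI. Beside them the Cldn15 levels of endothelial-like, fibroblast-like and smooth muscle or pericyte-like cells would be free-RNA levels.

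Of the 29 other claudin genes, 10 had no UMI in kept cells, 13 had 1 to 49, and 6 had more and were described by the same rule. Cldnd1, a claudin-domain gene, was spread over all 5 classes at 34.7 to 123 CPM and stayed within 0.5 in each. The 6 genes gave 17 measured combinations, of which 4 read higher in KI and 2 lower, while 18.5% to 29% of all genes passed the limit in the 5 classes. Cldn4, an epithelial claudin known to change in lung injury, stood at 294 and 243 CPM in airway epithelial-like cells and at 29.0 and 21.5 CPM in type 2 alveolar-like cells (−0.43 [−0.76, −0.10]). The type 2 ratio of Cldn4 ranged from −0.95 when CPM was averaged cell by cell to −0.0045 with each library clustered alone. Cldn23 stood at 35.5 and 14.96 CPM in type 1 alveolar-like cells (−1.25 [−2.14, −0.44]), or −0.43 when averaged cell by cell. Cldn10 was highest in airway epithelial-like cells, at 211 and 122 CPM. Cldn34c1 stood at 5.99 and 8.60 CPM in endothelial-like cells (0.52 [0.15, 0.89], or 0.46 with median-of-ratios size factors). Cldn12 stood at 11.2 and 15.9 CPM in fibroblast-like cells (0.51 [−0.04, 1.07], or 0.12 averaged cell by cell).

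The genes whose levels were most like those of each claudin were sought over 48 sums of a cluster and a library among 8734 genes. Cldn5 was nearest to the endothelial cadherin gene Cdh5 (Pearson's r 0.99 of log2 CPM), then Egfl7, S1pr1, Podxl and Pecam1. Of these, Cdh5, Egfl7 and Pecam1 are markers that named the class. Cldn18 was nearest to the chloride channel gene Clic3 (0.93), then the water channel gene Aqp5, the polarity gene Crb3, Mal2 and Myh14. Aqp5 is likewise a marker that named the type 1 alveolar-like class. Cldn7 was nearest to Rab25 (0.98), then Krt18, Fgfbp1, Krt8 and Trpm6. Cldn3 was nearest to C2cd4b (0.95), then Urah, Elf3, Smim6 and Muc1. The sparse Cldn1 and Cldn15 had lower values, led by Slco2b1 (0.80) and Pcdh19 (0.61). Among the claudins themselves the highest pairs were Cldn7 with Cldn18 (0.83) and Cldn3 with Cldn7 (0.77), and Cldn1 with Cldn5 was lowest (−0.42). The sums share libraries and clusters, and the values are descriptions.

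The partners of the claudins at the tight junction were read from a list of 35 genes for scaffold and other membrane proteins. In endothelial-like cells 32 were measured, 2 read more than 0.5 higher in KI and 0 lower, with a median ratio of 0.02 beside 0.06 over all genes, of which 12.2% passed upward and 6.31% downward. The 2 were Ildr2 (0.98 [0.49, 1.47], 55 and 104 UMIs) and Lsr, which stood at a free-RNA level. The number past the limit was 6 with each library clustered alone. The scaffold gene Mpdz stood at −0.43 [−0.59, −0.27] and the adhesion gene Jam2 at −0.20 [−0.33, −0.08]. Of the adherens junction list 17 of 18 were measured, with 4 higher and 1 lower and a median of −0.04, against the same shares of all genes. Among these 5 genes Ctnnd1, which encodes the cadherin-binding p120 catenin, was the one above a free-RNA level in both libraries, at 169 and 258 CPM (0.61 [0.54, 0.68]).

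In type 1 alveolar-like cells, where Cldn7 read lower and Cldn18 did not, 30 tight junction genes were measured, with 3 higher, 8 lower and a median of −0.20 beside 0.07 over all genes, of which 18.8% passed upward and 10.2% downward. The 3 lowest were Cxadr, which encodes a junction adhesion receptor, at 387 and 203 CPM (−0.93 [−1.16, −0.71]), Ocln, which encodes occludin, at 210 and 112 CPM (−0.91 [−1.21, −0.61]), and Marveld2, which encodes tricellulin, at 37.2 and 20.6 CPM (−0.85 [−1.62, −0.14]). Marveld2 became −0.39 with doublets kept. The highest were Amotl1 (0.74 [0.35, 1.13]), Mpdz (0.65 on 29 UMIs) and Cgnl1 (0.52, or 0.02 without clusters of low depth). The number past the limit was 11, but 4 without clusters of low depth and 5 under the stricter filter. Of the adherens list 15 were measured, with 4 higher and 5 lower. Nectin2, which encodes an adhesion protein, stood at 185 and 91.7 CPM (−1.02 [−1.36, −0.69]). The higher members included the endothelial genes Cdh5 (0.94), Pecam1 (1.15, at a free-RNA level in WT) and Ptprb (0.66, or 0.02 with doublets kept).

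In type 2 alveolar-like cells 30 tight junction genes were measured, with 3 higher, 1 lower and a median of 0.06 beside 0.05 over all genes, of which 12.5% passed upward and 6.3% downward. The lower gene was Esam, also known in endothelium, at 226 and 141 CPM (−0.68, or −0.23 with doublets kept). The higher genes were Arhgef2 (0.61), Marveld2 (0.58) and Mpp5 (0.54). Fibroblast-like cells had 4 higher and 4 lower of 27, with a median of −0.11 beside 0.09 (17.5% and 7.37% of all genes), and smooth muscle or pericyte-like cells 1 higher and 4 lower of 21, with −0.08 beside 0.04 (14.5% and 8.29% of all genes).

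Of 11 transcription factors known to act on claudin genes, 6 were measured in endothelial-like cells, with 3 higher and 0 lower and a median of 0.49 beside 0.06 over all genes, of which 12.2% passed upward. Sox18, an endothelial factor known to act on Cldn5, stood at 68.8 CPM in WT and 148 CPM in KI, a log2 ratio of 1.11 [1.01, 1.21]. Foxo1, known to repress Cldn5, stood at 83.2 and 107 CPM (0.36 [0.26, 0.46]), and Erg, known to activate endothelial junction genes, at 21.9 and 25.3 CPM (0.21 [0.01, 0.41]). The other 2 of the 3 that passed the limit upward, Nkx2-1 and Elf3, stood at free-RNA levels. Sox18, Foxo1 and Erg all read higher in KI where Cldn5 read lower. Their known actions are not all of 1 direction, since Foxo1 represses Cldn5 and Erg activates junction genes. The part of the 3 factors in the Cldn5 level was not tested. In type 2 alveolar-like cells 6 were measured and none passed the limit. Nkx2-1, the lung epithelial factor known to act on Cldn18, stood at 231 and 294 CPM (0.34 [0.24, 0.44]) there, and at 263 and 208 CPM (−0.34 [−0.58, −0.11]) in type 1 alveolar-like cells. Type 1 alveolar-like cells had 3 of 6 higher, where 18.8% of all genes were, on 8 and 19 UMIs of Sox18 (2.00), 39 and 40 of Foxo1 (0.79) and 21 and 20 of Grhl2 (0.68). The endothelial markers in this class stood at medians of 4.64% and 11.2% of their endothelial-like level, and their part in the Sox18 and Foxo1 values was not tested. Grhl2, an epithelial factor that binds claudin genes, stood at 13.7 and 14.95 CPM in type 2 alveolar-like cells (0.12 [−0.31, 0.56]).

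The alveolar transitional state, known as a step between type 2 and type 1 cells after injury, was read from a list of 15 genes that includes Cldn4. In type 2 alveolar-like cells 15 were measured, with 2 higher and 2 lower and a median of 0.06, where 12.5% and 6.3% of all genes passed upward and downward. Krt7 stood at 180 and 277 CPM (0.63 [0.52, 0.74]) and Lgals3 at 263 and 396 CPM (0.59), while Sfn stood at 378 and 255 CPM (−0.57). The other lower gene, Plaur, was at a free-RNA level there. In type 1 alveolar-like cells 13 were measured, with 2 higher and 6 lower and a median of −0.38 beside 0.07 over all genes, of which 18.8% passed upward and 10.2% downward. Sfn was lowest there, at 878 and 319 CPM (−1.46 [−1.63, −1.29]), followed by Plaur (−0.84) and Tm4sf1 (−0.80). The highest were Sprr1a (1.16 on 28 and 37 UMIs, or −0.11 without clusters of low depth) and Clu (0.66).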

How the data were processed

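Lungs of C57BL/6 mice with acute lung injury gave 1 droplet single-cell RNA library each for WT and p47phox-KI. The deposited files hold counts of UMIs per gene and barcode. The file headers name matrix software 3.0.2, while the submitters' processing notes list Cell Ranger 2.0, Seurat 2.3.4, R 3.5.3 and mm10. The aligner settings and the use of strand are not given in the sources used here. Barcodes with at least 200 genes and at most 10% mitochondrial UMIs were used, and Scrublet scores removed the highest 0.8% per 1000 barcodes of each library, because its automatic threshold marked 0. That left 7727 WT and 6637 KI cells.

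Cells were clustered in scanpy 1.11.5 and leidenalg 0.10.2 (2000 variable genes per library without claudin, Ig, T cell receptor, Xist, Tsix or Y-linked genes, 30 principal components, 15 neighbours, resolution 1). That gave 27 clusters, of which 26 were named from at least 3 detected fixed markers. The naming rule was adjusted after the cluster names, not the claudin values, had been seen. UMIs were summed per class and library. Intervals are exact Poisson (CPM), exact conditional binomial (ratios) and exact Clopper-Pearson (shares) at 95%. Ratios needed 20 UMIs over both libraries. A count of 0 allows up to 3 counts. Thinning to 1000 UMIs left out cells with fewer. Low-depth clusters had a median under 0.5 of their library's. The stricter filter asked for 500 genes and 5% mitochondrial UMIs.

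The text names the 6 claudins in every class, other claudin genes with at least 50 UMIs, up to 3 highest and 3 lowest genes of each list, and the 5 genes most like each claudin (log2(CPM + 10), genes reaching 50 CPM). Some of these are left out for length, and 1 list gene is not reported here. The claudins and lists were chosen with earlier results of these data known. Of 31053 gene identifiers, 31011 were found in GENCODE M21. Alternatives covered doublets, filters, resolution, separate clustering, cluster weights, averaging cell by cell, median-of-ratios size factors, UMI minimum and thinning. Scripts were tested on simulated data.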

Additional observations from a re-analysis of the deposited data

Results flagged for a closer look

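Cldn5 read in opposite directions between classes under the same contrast of KI with WT. Its log2 ratio was 0.81 in type 1 alveolar-like cells, −0.71 in fibroblast-like cells and −1.49 in type 2 alveolar-like cells, and the endothelial-like ratio was −0.36. These values moved with the processing: type 1 alveolar-like cells were at 0.17 with no cell filter and 0.20 with doublets kept, type 2 alveolar-like cells at 0.059 with doublets kept and −0.11 with each library clustered alone, and fibroblast-like cells at −0.25 averaged cell by cell and −1.44 under the stricter cell filter. Within classes, type 1 cluster 17 stood at −0.24, fibroblast-like cluster 14 at −2.79 and fibroblast-like clusters 11 and 19 at 0.04 and 0.09. The difference between these classes was not tested, since each group is 1 library. The endothelial markers read beside it stood at medians of 4.64% (WT) and 11.2% (KI) of their endothelial-like level in type 1 alveolar-like cells, and at 1.98% and 0.897% in type 2 alveolar-like cells. Their part in the Cldn5 values was not tested.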

How the results depend on the processing

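The log2 ratio of Cldn5 in endothelial-like cells (−0.36) was −0.34 under the stricter cell filter, −0.35 with no cell filter, −0.30 with each library clustered alone, −0.34 when CPM was averaged cell by cell and −0.42 with median-of-ratios size factors. Cldn5 read lower in 4 of 4 clusters at resolution 0.5. Cldn3 in type 2 alveolar-like cells (−0.19) was −0.28 under the stricter filter, and Cldn18 there (0.10) was 0.025 with no filter. Among values past the limit, directions turned for Cldn18 in endothelial-like cells (−0.023, stricter filter), Cldn3 in type 1 alveolar-like cells (−3.27 stricter filter, −2.71 clustered alone, −0.75 averaged cell by cell), Sprr1a in type 1 alveolar-like cells (−0.11 without low-depth clusters) and Cldn5 in type 2 alveolar-like cells (0.059, doublets kept). The cause was not tested. In all, 6 of 22 combinations of the 6 claudins and a class changed sign in some alternative, and 22 of 112 over all named genes. The others among the claudins lay within the limit: Cldn15 in fibroblast-like cells (0.09, lowest −1.42 with no filter), Cldn3 there (0.26, lowest −0.57 averaged cell by cell) and Cldn18 in smooth muscle or pericyte-like cells (−0.31, highest 0.38 averaged cell by cell). The number of claudin and class combinations past the limit (11) was 7 with a minimum of 100 UMIs. Tight junction genes past the limit in endothelial-like cells (2) numbered 4 with no filter, 6 clustered alone, 5 averaged cell by cell and 1 with a minimum of 100 UMIs. In type 1 alveolar-like cells (11) they numbered 5 under the stricter filter, 4 without low-depth clusters and 6 with the same cluster weights. Of the log2 ratios recomputed, 1009 stayed within their counting interval, 90 moved and 6 reversed. No paired analysis was possible because each group is 1 library. Size factors shift all ratios down by 0.045 to 0.087.

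With 1 library per group, genotype cannot be told apart from mouse, dissociation or library, nor from the difference in Y-linked transcripts of the leukocytes. In the other cells these transcripts were rare in both libraries (0.0133% of WT and 0.261% of KI cells). The labels do not give the sex of the mice. Fewer cells of a class and less RNA per cell affect library totals alike. Counts of Cldn1 and Cldn15 limit both genes, and shares of cells follow depth. Named classes rest on rebuilt clusters and not on the authors' annotation.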
